A study of Homo sapiens with 54 samples.

Results

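H1 embryonic stem cells kept for 41 days in MEF-conditioned medium (MEF-CM) with the chimeric growth factor FGFC were compared with the same cells kept for 41 days with bFGF. The members are the 4 arrays of these 2 cultures, 2 duplicate arrays each, of 54 arrays from 27 cultures in the whole series. H1 is an established human embryonic stem cell line, and MEF-CM is medium conditioned by mouse embryonic fibroblasts whose growth was stopped with mitomycin C. Both cultures were split from a pre-culture at passage 53 that had 5 ng/mL bFGF. They then received 5 ng/mL of either factor for 10 passages, up to passage 63, on a growth factor-reduced Matrigel coat. FGFC is a recombinant protein joined from parts of FGF1 and FGF2 that is stable to heat and proteases and needs no added heparin. The study asked whether it can take the place of bFGF in pluripotent cell culture. The 2 arrays of the pre-culture served as the starting point of both cultures. Each condition was a single culture, and the labels do not say that duplicate arrays held separate RNA extracts, so their spread may be technical and no test of the 2 cultures against each other is possible.

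Basic FGF binds FGF receptors and activates the ERK cascade, which human pluripotent cells need to stay undifferentiated. The second pathway they depend on is Nodal/Activin signalling, in which ligands of the TGF-beta family act through SMAD proteins. This pathway switches on its own secreted inhibitors LEFTY1, LEFTY2 and CER1, so the transcripts of these genes are often read as its output. Genes of the germ line, such as DAZL and MAEL, are normally kept low in such cells, many of them by DNA methylation of promoters rich in CG.

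A value below is a normalized log2 signal: log2 of the array's processed signal minus the 75th percentile of that array, so that 0 is the level of the 75th percentile and 1 unit is 2-fold. Levels of different probes cannot be set against each other. A probe was tested when it lay well above background on both arrays of at least 1 of the 2 cultures, and was called when FGFC array 1 differed 2-fold or more from bFGF array 1 and FGFC array 2 differed 2-fold or more from bFGF array 2 in the same direction. Of 42405 probes, 32798 were tested. Between 76.5% and 79.2% of probes were well above background on each of the 4 arrays, and no probe was saturated. Within a culture, duplicate arrays differed by a median of 0.130 (bFGF) and 0.101 (FGFC) log2 units, and 0.213% and 0.384% of the probes above background differed 2-fold or more. The pre-culture and the bFGF culture were hybridised on the same slide and the FGFC culture on another, so slide and culture cannot be told apart for FGFC.

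The 2 cultures were close over most of the transcriptome, and the differences ran mainly one way. With FGFC, 106 probes (0.323% of those tested) were called higher and 352 (1.07%) were called lower than with bFGF. The called probes stood for 82 and 251 named genes. The median difference over all tested probes was 0.02. Most differences were of moderate size, with 14 higher and 78 lower probes past 4-fold. Of the called probes, 62 higher and 222 lower ones were well above background on all 4 arrays, whereas 35 higher and 91 lower ones were not well above background on any array of the dimmer culture. For those only a lower limit of the fold is given. At the edge of the rule, QNG1 was called with log2 differences of -1.0009 and -1.0174 on the array pairs. PDCL2, at -1.3072 and -0.99999, just missed. Of 95 genes with a called probe and more than 1 tested probe, 79 had all tested probes in 1 direction and 16 had all of them called. With the normexp background correction, which adds an offset to every signal and compresses dim ones, 24 probes were called higher and 66 lower.

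**Figure D1:**
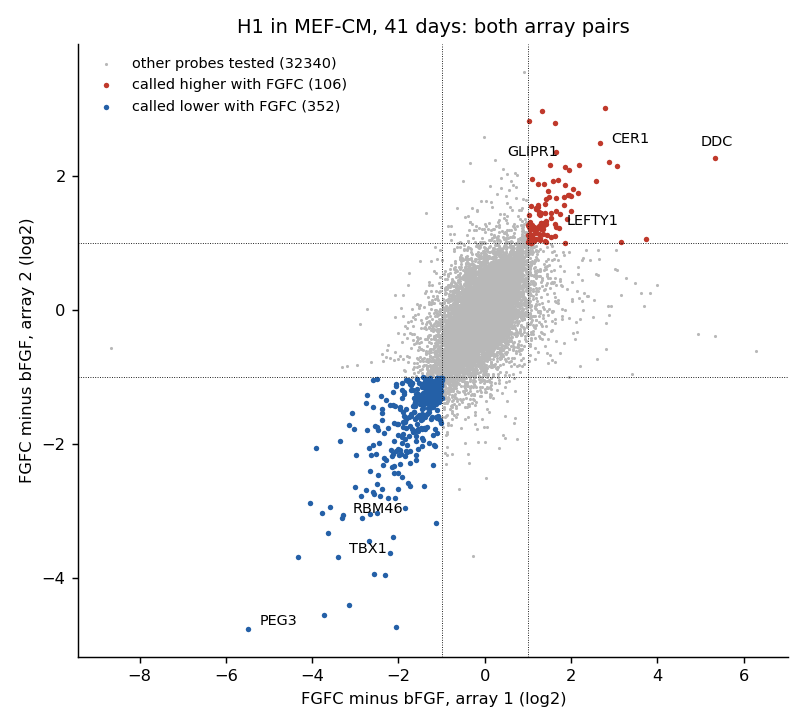
Difference between FGFC and bFGF (log2) on array pair 1 (x axis) and array pair 2 (y axis) for the 32798 tested probes, with dotted lines at 2-fold. The 106 probes called higher (red) and 352 called lower (blue) lie past 2-fold on both axes, and PEG3, TBX1 and RBM46 are the labelled genes farthest down.

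For most called probes it was the bFGF culture that stood away from the pre-culture. Against the pre-culture, 413 of 32370 tested probes were called higher (1.28%) and 92 lower (0.284%) in the bFGF culture, on the same slide. In the FGFC culture, on the other slide, 54 of 32396 were called higher (0.167%) and 56 lower (0.173%). Of the 352 probes lower with FGFC, 214 were called higher with bFGF than in the pre-culture, and 4 were called lower with FGFC than in the pre-culture. Their median difference from the pre-culture was 1.41 for bFGF and -0.07 for FGFC. Of the 106 probes higher with FGFC, 33 were called lower with bFGF than in the pre-culture and 5 were called higher with FGFC. Here the medians were -1.06 for bFGF and 0.36 for FGFC. Both comparisons share the pre-culture arrays, and the choice of probes by the difference between the 2 cultures sets part of this pattern.

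The secreted Nodal inhibitors CER1, LEFTY1 and LEFTY2 were higher with FGFC. CER1, an antagonist of Nodal and BMP ligands, measured -4.79 and -4.88 on the bFGF arrays, -2.12 and -2.37 on the FGFC arrays and -1.98 and -2.64 on the pre-culture arrays. The FGFC arrays thus lay in the range of the pre-culture, and the bFGF arrays lay apart below both, a 6.01-fold difference (2.59 log2). LEFTY1, which blocks Nodal co-receptors, measured 4.31 and 4.05 on the bFGF arrays, 5.96 and 5.54 on the FGFC arrays and 6.04 and 5.69 on the pre-culture arrays, a difference of 1.57. LEFTY2, its neighbour and close relative, measured 1.18 and 0.79 on the bFGF arrays, 2.44 and 2.25 on the FGFC arrays and 1.94 and 1.80 on the pre-culture arrays, a difference of 1.36. For LEFTY1 and LEFTY2 again neither FGFC array overlapped the bFGF arrays, which the calling rule largely sets for any called gene. The 2 LEFTY proteins are near-identical, and cross-hybridisation between their probes was not tested. CER1, LEFTY1 and LEFTY2 stayed called with normexp.

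The rest of the Nodal/Activin list moved less. Of 19 measured genes, 18 were tested, 4 were called higher and 1 lower, and the median of the tested genes was 0.07 beside 0.02 over all tested probes. The gene called lower was GDF1, a Nodal-related ligand, at -1.09. Among the ligands, NODAL differed by 0.82, GDF3 by -0.37 and INHBA, the Activin A subunit, by -0.05, none of them called. The receptors ACVR1B, ACVR2A and ACVR2B lay between -0.33 and 0.14. FOXH1, the DNA-binding partner of the SMAD complex, was at -0.14, and the feedback inhibitors SMAD7 and SKIL were at 0.16 and -0.03.

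Germ line genes were called most often among the 29 lists of pathway and cell type genes. These lists were chosen with earlier results of these data known. RBM46, on this list, was a marker given for the comparison, which sets part of the ranking. Of 18 measured genes of the germ cell and cancer-testis list, 16 were tested, 7 were called lower and 1 higher with FGFC. The tested genes had a median of -0.82. Over all tested genes, 1.28% were called lower and 0.39% higher. RBM46, an RNA-binding protein of meiotic cells, measured -1.79 and -1.81 on the bFGF arrays, -5.10 and -4.91 on the FGFC arrays and -5.93 and -7.84 on the pre-culture arrays. Its bFGF arrays stood 9.22-fold above the FGFC arrays (-3.20 log2), and the pre-culture was below background on both arrays. DAZL, an RNA-binding protein of the germ line, measured -2.16 and -2.02 with bFGF, against -4.06 and -3.87 with FGFC and -3.99 and -4.04 before the split, a difference of -1.88. MAEL, a factor of the piRNA pathway that silences transposons, read -3.93 and -3.96 with bFGF, against -5.56 and -5.59 with FGFC and -5.98 and -5.95 before the split, which is -1.63. In DAZL and MAEL the FGFC arrays differed from the pre-culture by means of 0.05 and 0.39, whereas in RBM46 they were above background and above both pre-culture arrays. The bFGF arrays were the highest in all 3 genes.

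The other members called lower were the piRNA factors PIWIL2 (-2.08) and TDRD9, STK31 (-1.77) and the cancer-testis antigen MAGEA4. TDRD9 was not well above background on either FGFC array and was at least 4.29-fold lower with FGFC. MAGEA4 was likewise at least 3.87-fold lower. TEX14, a protein of the bridges between germ cells, went the other way at 1.30. Of the regulators of germ cell fate, TFAP2C was at 0.03 and NANOS3 at 0.19, both less than 2-fold. DDX4 was at -0.92 and DPPA3 at -0.51, and neither was called. Further down the ranking of all genes, CT83, a cancer-testis antigen, was at least 3.75-fold lower. NLRP4, a gene of oocytes and testis, differed by -2.82, with 1 FGFC array above background. With normexp RBM46 and DAZL stayed called, whereas MAEL, PIWIL2, TDRD9, STK31, MAGEA4, TEX14 and CT83 did not.

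The promoters of 3 of these germ line genes and of TBX1 and CER1 are shown because results above and below turn on these genes. Each sequence is the 250 bases before the gene's start in RefSeq (GRCh38.p14), 5′ to 3′ on the gene's strand, with CG pairs in capitals.
DAZL, chr3:16605424-16605673, minus strand: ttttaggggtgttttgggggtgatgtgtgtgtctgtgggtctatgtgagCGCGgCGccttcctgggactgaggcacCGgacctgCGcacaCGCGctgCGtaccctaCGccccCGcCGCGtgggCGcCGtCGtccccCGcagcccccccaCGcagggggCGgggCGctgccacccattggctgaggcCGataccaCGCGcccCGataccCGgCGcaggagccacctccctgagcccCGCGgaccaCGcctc
MAEL, chr1:166975332-166975581, plus strand: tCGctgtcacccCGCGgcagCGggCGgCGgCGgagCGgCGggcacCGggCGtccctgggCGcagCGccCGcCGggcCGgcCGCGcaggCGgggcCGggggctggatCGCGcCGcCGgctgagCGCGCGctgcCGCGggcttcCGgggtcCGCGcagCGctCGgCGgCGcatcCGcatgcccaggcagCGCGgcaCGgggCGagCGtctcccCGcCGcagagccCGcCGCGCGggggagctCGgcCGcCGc
TDRD9, chr14:103928206-103928455, plus strand: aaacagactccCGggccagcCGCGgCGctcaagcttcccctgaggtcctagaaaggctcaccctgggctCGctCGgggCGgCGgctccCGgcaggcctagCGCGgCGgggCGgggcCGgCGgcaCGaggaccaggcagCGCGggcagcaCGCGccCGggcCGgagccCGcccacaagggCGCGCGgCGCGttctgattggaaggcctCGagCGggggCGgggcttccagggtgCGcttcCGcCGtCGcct
TBX1, chr22:19756453-19756702, plus strand: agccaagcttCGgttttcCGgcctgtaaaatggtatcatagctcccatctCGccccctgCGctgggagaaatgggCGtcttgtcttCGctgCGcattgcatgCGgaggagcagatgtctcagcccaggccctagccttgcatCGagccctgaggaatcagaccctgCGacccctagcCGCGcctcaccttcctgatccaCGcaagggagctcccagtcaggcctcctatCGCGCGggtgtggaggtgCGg
CER1, chr9:14722734-14722983, minus strand: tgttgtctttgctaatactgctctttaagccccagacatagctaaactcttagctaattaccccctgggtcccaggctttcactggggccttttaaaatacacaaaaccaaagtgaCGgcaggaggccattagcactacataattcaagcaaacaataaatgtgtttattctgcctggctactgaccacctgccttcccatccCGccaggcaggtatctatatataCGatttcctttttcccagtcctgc
The 250 bases hold 28 CG pairs at DAZL, 51 at MAEL, 35 at TDRD9, 17 at TBX1 and 3 at CER1. Counted over the window that runs on past the start to 300 bases, these 5 promoters have 33, 60, 41, 22 and 3 CG pairs. Among all 27195 promoters listed, 41.3% have 20 or more, and of the 13040 tested genes with a promoter there 63.6%. Of the 7 germ cell genes called lower, 6 had a promoter in the table and 4 of these 6 (66.7%) had 20 or more, close to the share among tested genes. Of all genes called lower 160 had a promoter, 52.5% of them with 20 or more, and of those called higher 58, with 22.4%. The table covered 63.8% and 70.7% of these 2 sets, so the shares are given without a comparison. No methylation was measured in these cultures.

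Several genes called lower lay side by side on their chromosomes. A run was counted when at least 3 genes called in the same direction lay within 8 consecutive measured genes, a rule set after the values were seen. There were 6 such runs of genes called lower, with 23 genes in all, and 0 of genes called higher. As 251 genes were called lower and 82 higher, more runs of lower genes arise from the counts alone, and their excess was not tested. CRTC1, in a run on chromosome 19, was at 0.08 on its most intense probe and was called on another. On chromosome 6, the 4 neighbours DPPA5, KHDC3L, OOEP and DDX43, genes expressed in oocytes, early embryos or testis, differed by -2.04, -2.03, -2.37 and -2.53. On chromosome 17, all 7 measured genes from TCAM1P to CD79B had a probe called lower, a stretch that holds the pituitary and placental hormones GH1, GH2, CSH1, CSH2 and CSHL1. These 5 hormone genes are near-identical copies, their probes may share signal, and the most intense GH2 probe was not called. On chromosome 22, SEPTIN5, GP1BB and TBX1 follow each other. On chromosome 19, ZNF528, ZNF534 and ZNF578, zinc finger genes, are adjacent, and ZNF528 and ZNF534 were at least 11-fold and 6.07-fold lower. ZNF528 and ZNF534 were below background on both FGFC arrays and lost the call with normexp.

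Zinc finger genes in general were called about as often as other genes. Of 435 tested genes with a ZNF number for a symbol, 6 were called lower (1.38%) beside 1.28% of all tested genes, and 0 were called higher.

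TBX1, a T-box transcription factor of the pharyngeal arches, had the largest difference among called genes above background on all 4 arrays. It measured 2.23 and 2.23 on the bFGF arrays, -1.16 and -1.44 on the FGFC arrays and -1.86 and -2.26 on the pre-culture arrays. The bFGF arrays were 11.6-fold above the FGFC arrays (-3.54 log2) and equal to each other at 2 decimals, while the pre-culture arrays were lower still than the FGFC arrays. A second TBX1 probe was below background on both FGFC arrays and at least 7.93-fold lower with FGFC. None of the other 14 tested genes of the pharyngeal and cardiac mesoderm list was called. That lies near the share over all tested genes (0.39% higher and 1.28% lower). The list median was -0.04. Its best expressed genes NKX2-5, KDR and TNNT2 differed by 0.40, -0.70 and 0.29.

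PEG3, an imprinted gene expressed from the paternal copy, gave the largest difference of all called probes. The called probe measured -1.85 and -1.96 on the bFGF arrays, -7.33 and -6.72 on the FGFC arrays and -4.72 and -4.54 on the pre-culture arrays. It was not well above background on either FGFC array, so the level with FGFC was at least 32.9-fold lower than with bFGF. The pre-culture arrays lay between the 2 cultures, and the probe was also called lower with FGFC than in the pre-culture. A second PEG3 probe, above background on all 4 arrays, differed by 0.39 in the other direction, so the 2 probes disagree. ZIM2, which shares its first exons with PEG3, differed by -1.85, a call lost with normexp. It was the only one of 18 tested imprinted genes called on its best expressed probe, and GNAS, SNRPN and MEST were at 0.02, 0.19 and -0.22.

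PON3, an enzyme bound to high-density lipoprotein, measured -1.43 and -1.49 with bFGF, against -4.72 and -4.54 with FGFC and -4.53 and -4.70 before the split, a 9.02-fold difference (-3.17 log2) in which FGFC and pre-culture arrays overlapped. CTSF, a lysosomal cysteine protease, differed by -2.72. Other large falls were below background with FGFC. ANKRD20A9P and ZNF439 were at least 15.5-fold and 12.2-fold lower, and PTPN20, ANXA13, MPC1L, LOC441666 and ZNF560 at least 3.38-fold to 6.72-fold lower. The other probe or probes of PTPN20 and LOC441666 were not called. Of these 7 genes ANKRD20A9P alone stayed called with normexp.

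Among genes higher with FGFC, GLIPR1, a secreted protein of the CAP family induced by p53, measured -4.47 and -4.78 on the bFGF arrays, -2.29 and -2.62 on the FGFC arrays and -2.995 and -3.17 on the pre-culture arrays. The difference was 2.18 (4.52-fold), and the bFGF arrays lay below all others. Of 16 tested genes of that list, GLIPR1 alone was called higher, the cell cycle inhibitor CDKN1A was called lower at -1.005, and 14 of 16 had a value below 0. ALB and AFP, the serum proteins of fetal liver and yolk sac, were higher by 2.00 and 1.07. AFP measured 3.18 and 2.96 with bFGF, against 4.24 and 4.04 with FGFC and 3.96 and 3.59 before the split. The liver genes TTR, APOA2, FGB and TF were not well above background on any of the 4 arrays. FOXA2, a pioneer factor of endoderm, was higher by 1.64. FOXA1 and TBXT, factors of endoderm and mesoderm, were at 1.07 and 1.07 on the means without being called on both array pairs. SOX17 was at 0.09, EOMES at -0.07 and MIXL1 at 0.03. MESP1, a cardiac mesoderm factor, was called lower at -1.38. With normexp the calls of ALB, FOXA2, MESP1 and CDKN1A were lost, and with quantile normalization those of AFP and CDKN1A.

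The largest rises came from dim probes. DDC, the decarboxylase that makes dopamine and serotonin, had array differences of 5.34 and 2.27, was below background with bFGF and was at least 9.74-fold higher. Its FGFC arrays were far apart, at -1.50 and -5.95, and a second DDC probe differed by -0.05. NCF1, a subunit of the phagocyte oxidase, likewise read -2.63 and -5.28 with FGFC, and its 3 other probes lay between 0.03 and 0.33. MAB21L4 was at least 5.97-fold higher, the interleukin-1 receptor IL1R1 at least 3.71-fold, and SERTAD4BP, BMPR1B-DT, ST18, ADARB2-AS1 and ZNF205-AS1 at least 2.46-fold to 3.35-fold. Above background in both cultures, the thrombin receptor family gene F2RL2 was higher by 1.95 and the mesenchyme factor TWIST1 by 1.40. MMP10, a stromelysin, differed by 2.01 and was above background on 1 bFGF array. All of these genes, from DDC to MMP10, lost the call with normexp.

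**Figure D2:**
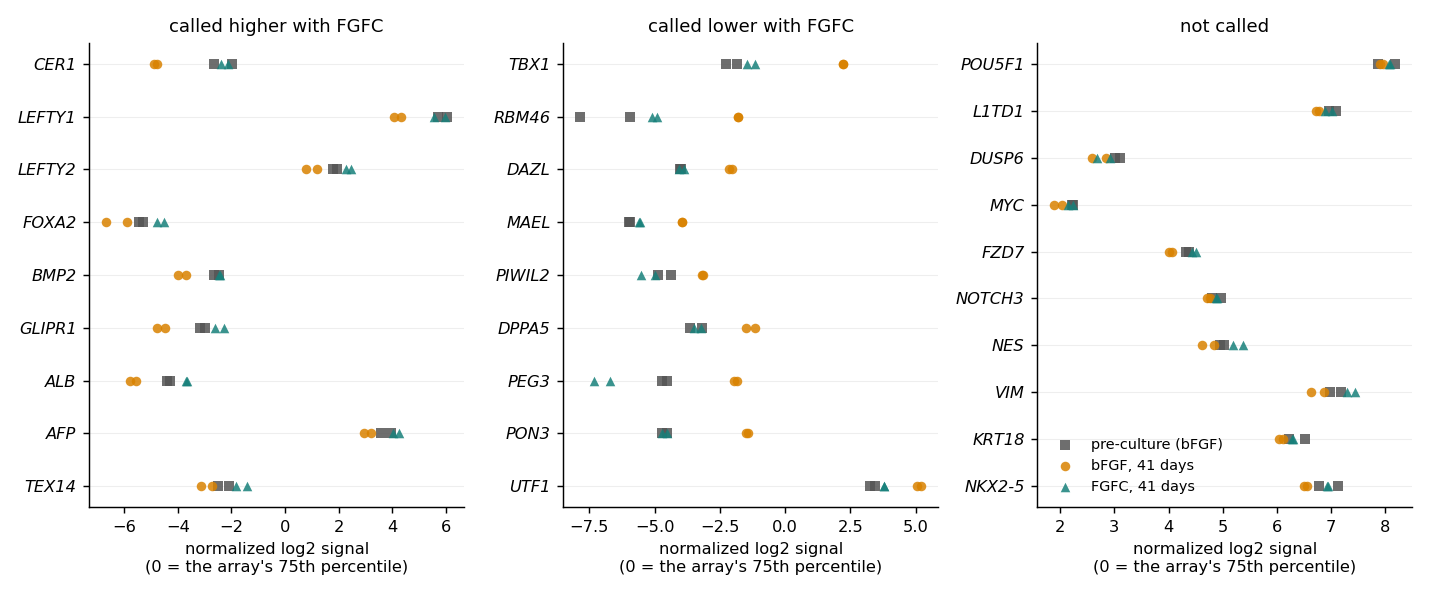
Normalized log2 signal (x axis) of single genes on the 2 arrays of the pre-culture (grey squares), of bFGF at 41 days (orange circles) and of FGFC at 41 days (green triangles). In the left and middle panels the orange circles stand apart from the other 2 cultures, as for CER1 and DAZL, and in the right panel all arrays of a gene lie within 1 unit.

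Genes that report FGF/ERK activity differed by less than 2-fold. All 19 genes of the FGF/ERK target list were above background on all 4 arrays and none was called. Over all tested genes 0.39% were called higher and 1.28% lower, so 0 of 19 lies near that share. The values of the 19 genes ran from -0.84 (ETV5, an ETS factor) to 0.94 (IER3), with a median of 0.06. DUSP6, the phosphatase that dampens ERK and is widely used as its readout, measured 2.84 and 2.59 on the bFGF arrays, 2.92 and 2.68 on the FGFC arrays and 3.099 and 3.02 on the pre-culture arrays. The arrays of the cultures overlapped, with a difference of 0.08. The feedback inhibitors SPRY1, SPRY2 and SPRY4 lay between -0.18 and -0.10, and MYC was at 0.23. Among 13 tested ligands and receptors, the receptors FGFR1, FGFR2, FGFR3 and FGFR4 lay between -0.41 and -0.12, and FGF2, the cells' own bFGF gene, was at -0.15. FGF4, a ligand made by pluripotent cells, was called lower at -1.28, and FGF1 was called higher at 1.18. Neither stayed called with normexp.

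Pluripotency genes were expressed on all arrays. All 19 genes of the core list were above background on all 4 arrays, and 18 of them differed by less than 2-fold. POU5F1 measured 7.95 and 7.91 on the bFGF arrays, 8.06 and 8.09 on the FGFC arrays and 8.18 and 7.87 on the pre-culture arrays, a difference of 0.15. NANOG, SOX2 and LIN28A were at 0.08, 0.14 and 0.15. UTF1, a chromatin factor of pluripotent cells, was the exception. It measured 5.05 and 5.21 on the bFGF arrays, 3.77 and 3.77 on the FGFC arrays and 3.44 and 3.26 on the pre-culture arrays, so that the bFGF arrays were 2.56-fold above the FGFC arrays, which lay near the pre-culture. In the list of naive state genes DPPA5 (-2.04) and FGF4 were called lower, and the other 12 genes, KLF4, TFCP2L1 and KLF17 among them, lay between -0.51 and 0.63.

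Of the other signalling pathways, BMP had 3 called genes of 16 tested. The ligand BMP2 was higher by 1.39, and the ligand BMP7 differed by -1.14 on its best expressed probe and by -1.53 and -1.54 on the others. Neither call held with normexp. The target genes ID1, ID2 and ID3 lay between -0.44 and -0.14. None of 23 tested WNT genes and none of 17 tested Notch genes was called, near the low share over all tested genes. The WNT and Notch medians were -0.16 and -0.23, and the best expressed members FZD7 and NOTCH3 were at 0.43 and 0.16.

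The lists of other cell types held few called genes, as did all tested genes (0.39% higher and 1.28% lower). Of 18 tested neuroectoderm genes none was called, though 13 had a value above 0 and the median was 0.34, with PAX6 and INSM1 at 1.05 and 1.05. Their array pairs were not both past 2-fold. SOX1 was not well above background on any of the 4 arrays. Fibroblast and mesenchyme genes (14 tested, median 0.33), endothelium and blood genes (13 tested, median -0.14), amnion and trophoblast genes (9 tested, median -0.21) and keratinocyte genes (10 tested, median 0.13) had none. On the bFGF arrays the median level of the measured fibroblast genes was -0.07 and 0.16, and on the FGFC arrays -0.24 and -0.15, so that the level was lower on the FGFC arrays while the median of the gene differences was above 0. Of the 17 measured fibroblast genes, 14 were above background in both cultures, 11 of them with a difference above 0, such as VIM at 0.63, TAGLN at 0.87 and THY1 at 0.05. COL3A1, LUM and DCN were below background on all 4 arrays. Likewise below background on all 4 arrays were 2 endothelium and blood, 4 amnion and trophoblast and 1 keratinocyte gene. The part of other cells in the called genes was not tested.

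Among housekeeping and stress pathways, none of 16 amino acid and ER stress genes, 21 glycolysis and hypoxia genes, 20 integrin and laminin genes, 18 immediate-early genes and 15 interferon genes was called. The 10 metallothionein genes, which bind zinc and copper, were all above 0, from 0.27 (MT3) to 0.80 (MT1G) with a median of 0.52, and none was called on its best expressed probe. These genes are close copies and are not independent measurements. Of 20 cholesterol and fatty acid genes 1 was called lower, and FDPS and DHCR7 were at -0.07 and -0.07. COL9A3, a chain of type IX collagen, was the single called gene of 20 tested collagens, at -1.11. The cell cycle list had CDKN1A alone, with CCNB1, PCNA and MCM2 at -0.10, -0.24 and 0.17. In all, 12 of 435 tested list genes were called higher and 19 lower, and 14 of the 29 lists had no called gene. Over all tested genes 0.39% were called higher and 1.28% lower, so a list with no called gene lies near these shares.

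**Figure D3:**
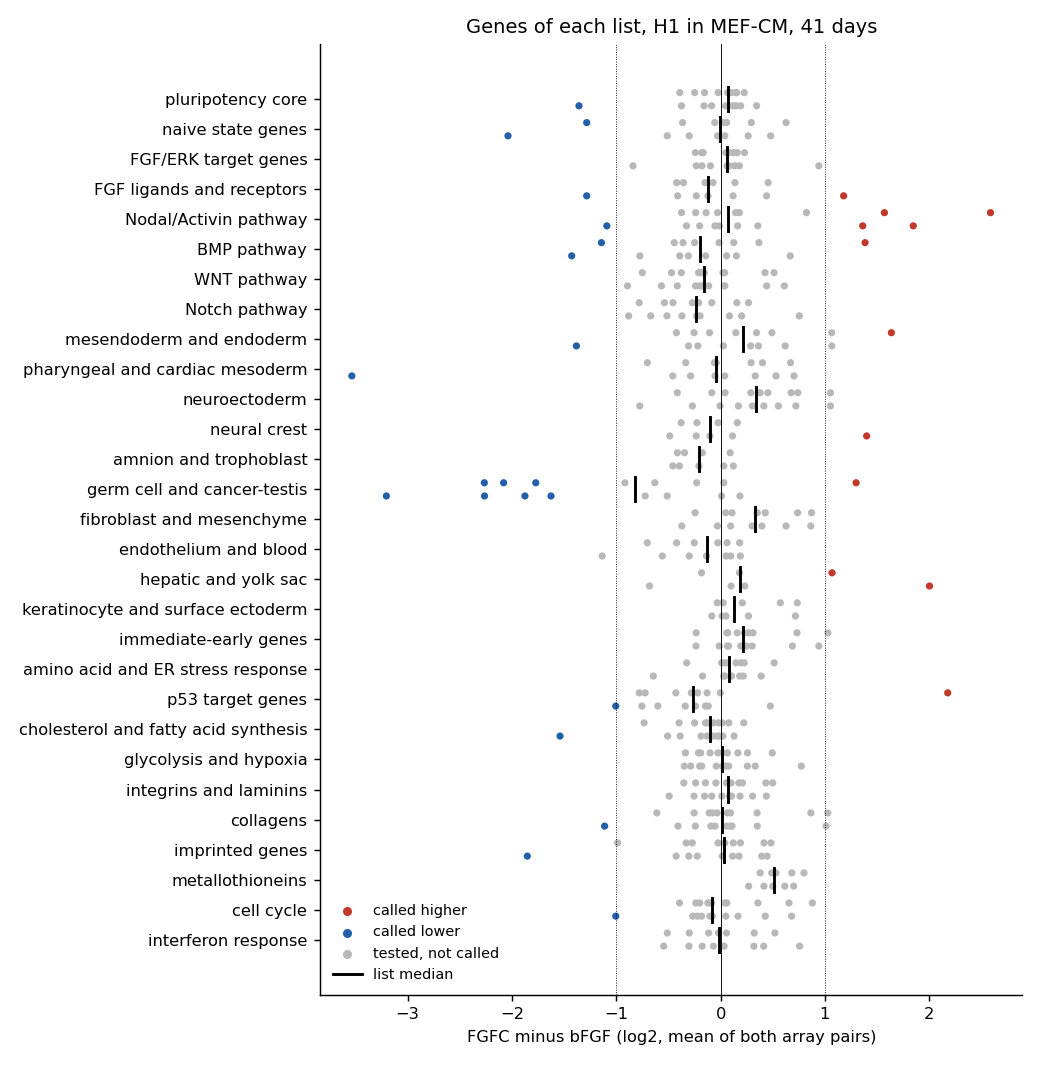
Difference between FGFC and bFGF (log2) of each tested gene, by list, with genes called higher in red, called lower in blue and others in grey, and a black bar at the list median. Germ cell genes trail to the left of -1 with a median of -0.82, and 4 Nodal/Activin genes lie to the right of 1.

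Genes of chromosome 20 as a group were lower with FGFC than with bFGF, a pattern noticed in the data. Over its 469 tested genes the median difference was -0.19, and 72.9% of them were below 0. On the other 22 chromosomes (the Y chromosome was left out) the medians lay between -0.0009 and 0.05, and between 38.2% and 50.2% of genes were below 0. The 2 array pairs gave -0.19 and -0.21. Against the pre-culture the chromosome 20 median was 0.19 in the bFGF culture, where the other chromosomes ranged from -0.06 to 0.03, and 0.00 in the FGFC culture. The shift ran along the whole chromosome, since in each of 14 successive segments of 33 or 34 genes the median of FGFC minus bFGF was below 0, from -0.31 to -0.08. In the 4 other long-term systems the chromosome 20 median lay within the range of the other chromosomes. Of the called genes on it, 11 were lower, BMP7 and COL9A3 among them, and 2, BMP2 and FOXA2, were higher. The study examined the G-banded karyotype, which gives chromosome number and large changes, of H1 cells after long-term culture in MEF-CM with FGFC. That karyotype was reported as unchanged. The condition is that of the FGFC culture here, whose chromosome 20 median was 0.00 against the pre-culture. For the bFGF culture, where this median was 0.19, no karyotype was reported. No DNA copy number was analysed here for either culture, and its part in the shift was not tested.

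**Figure D4:**
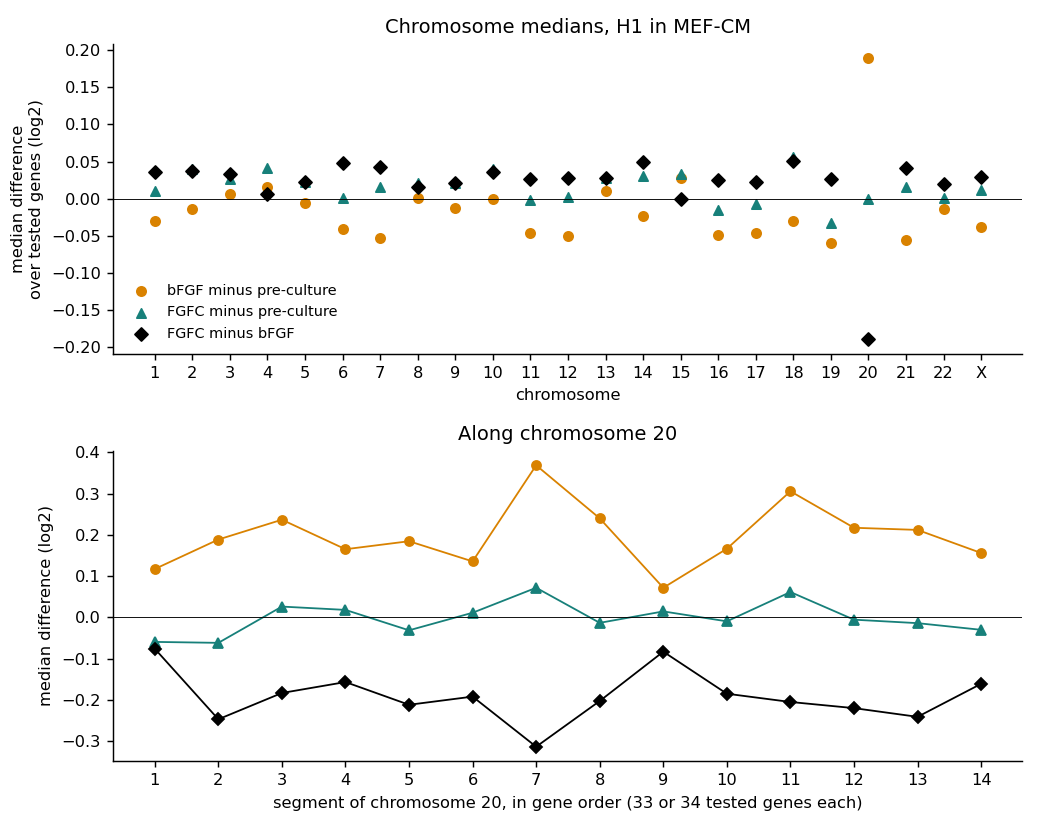
Median difference (log2) over the tested genes of each chromosome (top) and of 14 successive segments of chromosome 20 (bottom), for bFGF minus pre-culture (orange), FGFC minus pre-culture (green) and FGFC minus bFGF (black). Chromosome 20 stands apart at 0.19 for bFGF minus pre-culture, and its black points are below 0 in all segments.

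The difference between FGFC and bFGF in MEF-CM was then set against the same difference in 4 other long-term systems, each with 1 culture per factor. H1 was kept for 30 days and 253G1 induced pluripotent stem cells for 36 days in E8 Medium, a defined medium without feeder cells. KhES-1 embryonic stem cells were kept for 30 days and 201B7 induced pluripotent stem cells for 50 days on MEF. The dose of either factor was 100 ng/mL in both E8 Medium systems, 10 ng/mL in 201B7 and 5 ng/mL in KhES-1. Of these, KhES-1 alone had the 5 ng/mL of MEF-CM. Dose thus differed along with cell line and medium, and its part in the comparisons was not tested. The limma model over 10 cultures found no probe whose mean difference in the 4 other systems passed an adjusted p of 0.05, with 1844 of 42405 probes under an unadjusted p of 0.05. It found 0 probes for which MEF-CM departed from the other systems, with 1749 under an unadjusted p of 0.05. The lowest adjusted p was 0.0857, for PEG3, with a departure of -5.21 (SE 0.27). As this probe was below background on both FGFC arrays, the size of its departure is uncertain, here and with normexp. TBX1 departed by -3.63 (SE 0.32, adjusted p = 0.576) and PON3 by -3.31 (SE 0.36, adjusted p = 0.576). CER1 departed by 2.62 (SE 0.60, adjusted p = 0.815). In this model the MEF-CM pair is assumed to vary like the others, with 3 residual degrees of freedom. With the normexp background correction 32 probes passed, 22 of them called in MEF-CM. TBX1 then departed by -3.32, CTSF by -2.64, and PON3 and PEG3 by -1.83 and -2.03. LINC00880 and a probe without a gene name departed further, by -5.17 and -4.33, and were not called in MEF-CM.

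Among the Nodal inhibitors the sign varied between systems. LEFTY1 was at -2.72 in H1 in E8 Medium, opposite to MEF-CM, and at -0.04, -0.43 and -0.55 in KhES-1, 201B7 and 253G1. LEFTY2 was at -1.89 in H1 in E8 Medium. TBX1 ranged from -0.31 to 0.31 over the 4 systems. BMP2 and TEX14 were called higher in H1 in E8 Medium (1.19 and 1.39) and in 253G1 in E8 Medium (1.16 and 1.28). MAGEA4 was called lower in 253G1 at -1.69.

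By the same calling rule, the probes lower with FGFC overlapped most with 253G1 in E8 Medium. There 236 of 24115 tested probes were called lower, and 32 of them were also lower in MEF-CM, 9.09% of the MEF-CM list and 13.6% of the 253G1 list. The shared genes included the cardiac and gut factor GATA5, the sulfatase SULF1, MAGEA4 and GPAT2. The overlap with H1 in E8 Medium was 13 probes (3.69% and 4.98% of the lists), with 201B7 it was 5 (1.42% and 0.743%) and with KhES-1 it was 0. Not all 352 probes were tested in each system. Of the 155 tested in 253G1, 20.6% were called lower there beside 0.979% of all tested probes, and of the 157 tested in H1 in E8 Medium 8.28% beside 0.951%. Of the 212 tested in 201B7 it was 2.36% beside 2.29%, and of the 228 tested in KhES-1 it was 0 beside 0.101%. Called the opposite way were 3 probes in H1 in E8 Medium, 7 in 201B7, 1 in KhES-1 and 0 in 253G1. Among probes higher with FGFC, 5 were shared with H1 in E8 Medium, 3 with 253G1, and 0 with KhES-1 and 201B7. Of the 42 tested in H1 in E8 Medium, 11.9% were called higher there beside 0.495% of all tested probes. Of the 41 tested in 253G1 it was 7.32% beside 0.261%. Of the 64 tested in KhES-1 it was 0 beside 0.201%, and of the 58 tested in 201B7 0 beside 0.157%. Called the opposite way in H1 in E8 Medium, 253G1, KhES-1 and 201B7 were 5, 1, 1 and 7 probes. These cultures share no array with the MEF-CM comparison. They were not matched for dose, with 100 ng/mL in the E8 Medium systems beside 5 ng/mL in MEF-CM.

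**Figure D5:**
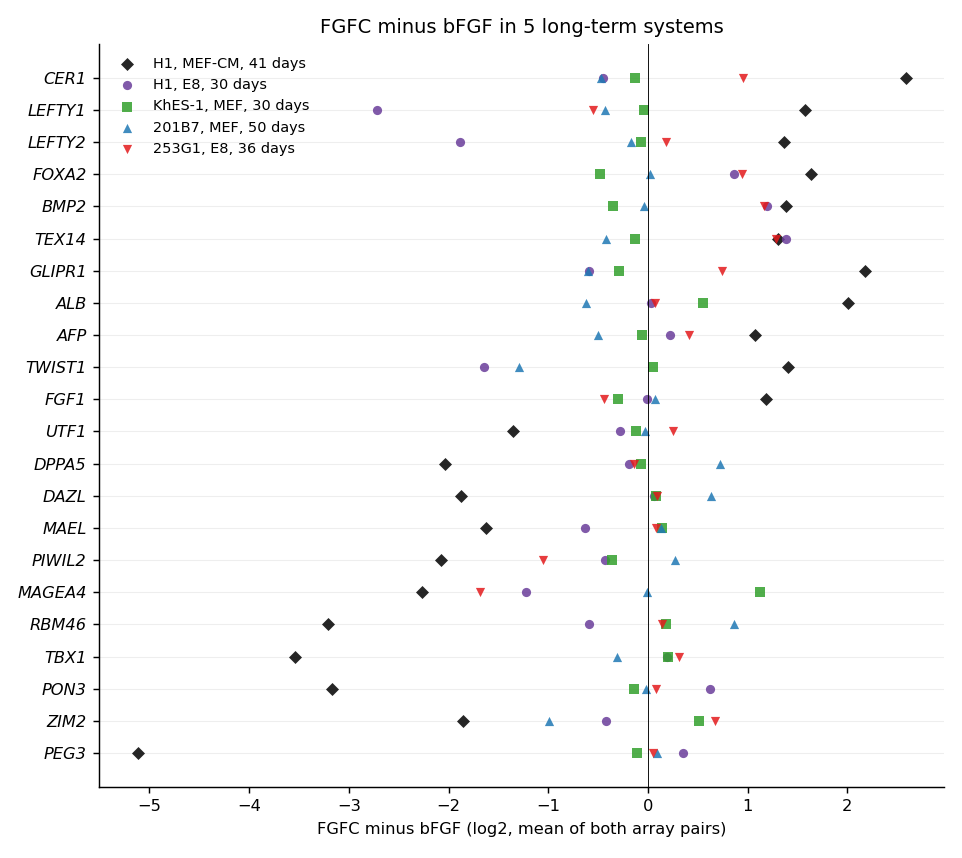
Difference between FGFC and bFGF (log2) of single genes in H1 in MEF-CM (black diamonds) and in the 4 other long-term systems (coloured symbols). The black diamonds of TBX1, PON3, RBM46 and PEG3 lie past -3 while the other systems lie within 1 unit of 0, whereas BMP2 and TEX14 lie past 1 in MEF-CM and in both E8 Medium systems.

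The genes that differed in MEF-CM were also examined in H1 cells left for 4 days without FGF in E8 Medium, in 3 experiments, against cells given 100 ng/mL bFGF. There, limma was fitted over 12 cultures, with no term for the experiment. At an adjusted p of 0.05, 2349 of 42405 probes were higher without FGF (5.54%) and 3051 lower (7.19%). Over the 32798 probes tested in MEF-CM these shares were 6.51% and 9.05%. Of the 352 probes lower with FGFC in MEF-CM, 104 were lower without FGF (29.5%) and 28 higher (7.95%). Of the 106 probes higher with FGFC, 20 were higher without FGF (18.9%) and 9 lower (8.49%). BMP2 was 3.03 log2 higher without FGF (adjusted p = 0.000363) and F2RL2 3.63 (adjusted p = 0.00474), the direction they had with FGFC. DPPA5 differed by -2.21 (adjusted p = 0.00342) and MAGEA4 by -3.09 (adjusted p = 9.27e-05), again as with FGFC. LEFTY1 at -1.93 (adjusted p = 0.0469), BMP7 at 2.64 (adjusted p = 1.12e-05) and PEG3 at 1.29 (adjusted p = 0.000639) had the opposite direction. CER1, GLIPR1, TBX1, RBM46, DAZL and PON3 did not pass, with values between 0.02 and 0.71. DUSP6 and MYC, which did not differ by 2-fold in MEF-CM, were at -2.66 (adjusted p = 0.0122) and -2.02 (adjusted p = 0.000846) without FGF. Without experiment 1, 2 or 3 the model gave 3557, 1942 and 1272 probes in place of 5400.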

How the data were processed

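RNA of 27 cultures was measured on 54 one-colour Agilent human arrays, 2 arrays a culture. The deposited values are processed signal intensities, which the authors obtained with Agilent Feature Extraction as background-subtracted spot signals. Signals below 1 were set to 1, log2 was taken and each array's 75th percentile was subtracted, as in the study's methods. Spots of a probe were averaged, and control spots and outlier spots were left out. The genome build is not given in the sources used here. Of 42405 probes, 25715 were named through RefSeq accessions and 1045 through Entrez identifiers in the study's probe lists, for 20158 genes. The number of arrays limits the precision.

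The members, gene lists and tests were chosen with earlier results of these data known. Named genes are the 15 largest called rises and falls, the 4 markers given for the comparison, the called genes of 29 lists, and up to 3 of the best expressed genes of lists with fewer than 2 called. Other names were chosen after their values were seen. A list gene is represented by its probe with the highest mean signal. Folds written as "at least" set the brighter culture's mean against the mean of, per array, the higher of the lowest signal well above background and the probe's own signal.

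Models were fitted with limma 3.58.1 in R 4.3.3 (lmFit and eBayes on culture means, Benjamini-Hochberg adjustment over all probes). In the 4-day data the experiment numbers pair the no FGF and bFGF cultures, with correlations of their deviations of 0.32, 0.23 and 0.19. The main model left this pairing out. With the experiment as a block it gave 5750 probes in place of 5400. On simulated data with the spread of the 10 cultures, the test of MEF-CM against the other systems recovered 0, 9, 39 and 47 of 50 probes changed by 1, 2, 3 and 4 log2 units among 33420, with 5 false calls in all. Alternatives were normexp, quantile normalization, other filters, single arrays, left-out systems or experiments, and slide or replicate blocks. Genes of the Y chromosome and XIST were not reported. Some genes are not reported here.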

Additional observations from a re-analysis of the deposited data

How the results depend on the processing

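The 458 called probes (76.9% of them lower) became 90 with normexp (median signal and background, offset 50), whose offset compresses dim signals. No background filter gave 793, a filter on both cultures 284, 2-fold on the means alone 825, array 1 only 1561 (64.6% lower), array 2 only 1418 (63.8% lower) and a 3-fold limit 122. Quantile normalization (396) and every FGFC array against every bFGF array (338) stayed within 1.5 times. Of the 55 named genes called, 53 stayed called under quantile normalization (AFP and CDKN1A did not) and 18 under normexp, CER1, LEFTY1, LEFTY2, TBX1, RBM46, DAZL, PEG3 and PON3 among them, and none changed direction in any alternative run. List genes called were 31, and 14 with normexp. Against the pre-culture, normexp gave 93 called probes for bFGF in place of 505 and 9 for FGFC in place of 110, an alternative chosen after seeing the data, as were those for chromosome 20, whose median was -0.17 with normexp and -0.21 with quantile normalization. MEF-CM against the other systems gave 32 probes with normexp and 0 under the other settings, each left-out system included, and the 4 other systems gave 0 throughout. No FGF against bFGF gave 5400 probes. With the replicate block it gave 5750 and with the slide as a block 3655, each within 1.5 times. Of these probes, 5106 and 3141 were among the 5400. With only the bFGF and no FGF cultures it gave 9750. When an experiment was left out it gave between 1272 (without experiment 3) and 3557 (without experiment 1). Normexp used the median spot signal in place of the mean signal that had been planned. Signal over background limits 35 called higher and 91 called lower probes, which were below background in the dimmer culture.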
